A study of Mus musculus with 12 samples.

Results

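The genes described here handle phosphate in the kidney, receive the hormones that set its excretion, and make, sense or break down active vitamin D. The 10 mouse genes were chosen by name and found in the expression table by their NCBI Gene numbers, and they are 10 of the 27179 gene identifiers in it. All 10 passed the filter for testing, which asked for a level of at least 1 TPM (transcripts per 1000000) in at least 3 of 12 libraries. Total RNA of whole kidney was sequenced with paired ends on an Illumina HiSeq from mice with or without the DNA repair nuclease FAN1, after repeated doses of the platinum drug cisplatin or of saline. Each of the 4 groups holds 3 mice, and each mouse gave 1 library. The control genotype is named Wildtype, and the other is Gamma-GT1-Cre;Fan1-/-, called FAN1KO by the study. The Cre is driven by the Ggt1 promoter, so the study's methods place the deletion in proximal tubule cells and other kidney cells keep the gene. Both genotypes received either saline or cisplatin at 2 mg/kg into the peritoneum, once a week for 5 weeks. The labels give an age of 8 to 12 weeks in all groups and a strain background of Mixed, while the methods describe a backcross to 129Sv-Elite and the use of male and female mice.

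Filtered phosphate is recovered by the proximal tubule, mainly through the sodium-phosphate cotransporters encoded by Slc34a1 and Slc34a3 in the brush border membrane. Parathyroid hormone, acting on the receptor Pth1r, and the bone hormone FGF23, acting on FGF receptors with klotho (Kl) as coreceptor, both withdraw these transporters from the membrane. Active vitamin D is made by the 1-alpha-hydroxylase Cyp27b1, binds the nuclear receptor Vdr, and is inactivated by the 24-hydroxylase Cyp24a1, which it induces itself.

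The deposited values are TPM, which sum to 1000000 in each library, so a level is a share of all RNA measured, per transcript length. Whole reads could be recovered from the steps between low values, and they come to 37201961 to 82947246 reads per library. The members had 277 to 419313 reads per gene and library. Whether both mates of a pair are counted in these numbers is not known. Y-linked RNA was present in 4 of the 12 libraries, namely wild-type saline mouse 3, FAN1KO saline mouse 1, wild-type cisplatin mouse 1 and FAN1KO cisplatin mouse 3, so each group holds 1 such library. The count of members called is therefore also given with Y-linked RNA as a covariate and in the 8 libraries without it.

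Fan1 itself was low, at 3.8, 3.35 and 1.98 TPM in wild-type saline mice 1 to 3, 1.17, 1.54 and 2.28 TPM in FAN1KO saline mice, 2.33, 3.57 and 3.32 TPM in wild-type cisplatin mice and 2.72, 3.51 and 1.55 TPM in FAN1KO cisplatin mice. The genotypes overlapped under both treatments. The log2 fold change between genotypes was -0.59 under saline (adjusted p = 0.593, limma) and -0.21 under cisplatin (adjusted p = 0.604). With a deletion in proximal tubule cells alone, the level of the whole gene in whole kidney does not check the genotype labels.

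A few measures moved with the groups across the whole table. Mitochondrial transcripts made up 10.2%, 13.7% and 16.7% of TPM in FAN1KO cisplatin mice 1 to 3, against 18.3% to 22.7% in the other 9 libraries. The median log2 fold change over the 14972 genes tested was 0.24 for FAN1KO against wild-type under cisplatin, 0.37 for cisplatin against saline in FAN1KO, 0.08 for cisplatin against saline in wild-type, 0.28 for the interaction of genotype and treatment and -0.04 for the genotypes under saline. Values relative to these medians are given beside the called fold changes of the 10 members, and each call was repeated after scaling every library to a common median ratio, which brought all 5 medians to between -0.03 and 0.01. Fold changes are on the log2(TPM + 1) scale, which understates changes of genes with low values, and a gene is called where limma's p, adjusted over all 14972 genes, is under 0.05. In bulk tissue, fewer cells of a type and less RNA per cell cannot be told apart, so all levels are those of the kidney as a whole.

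Cisplatin-treated FAN1KO kidneys stood apart from the other 3 groups in some of these genes, but not in all of them. Many other genes did so in part. Of all genes tested, 44.3% did not overlap between genotypes under cisplatin, and 54.9% did not between cisplatin and saline in FAN1KO. The share of all genes outside all other groups at once was not counted. The RNA of the phosphate cotransporters Slc34a1 and Slc34a3, of the klotho gene and of the parathyroid hormone receptor was lower in each of the 3 FAN1KO cisplatin mice than in any other mouse. In TPM as deposited, the RNA of the vitamin D-activating enzyme Cyp27b1 and of the phosphate transporter Slc20a2 was higher in each of these mice than in any other. Cyp24a1 had high values in all FAN1KO cisplatin mice and in wild-type cisplatin mice 1 and 2, and Fgfr1 and Vdr varied within groups about as much as between them. For Fgfr1 the lowest value of each group was in its library with Y-linked RNA.

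Per transcript length, Slc34a1 was the most abundant of the 10 genes in every group, with a mean of 2701 ± 18.3 TPM (SD, n = 3 for all means) in wild-type saline kidneys. In that group Pth1r at 476 ± 67.3 TPM, Slc9a3r1 at 365 ± 47.1 TPM and Kl at 247 ± 34.7 TPM came next, and each lay above the next by more than the larger SD. Vdr at 107 ± 15.4 TPM, Cyp24a1 at 54.1 ± 32.8 TPM and Slc34a3 at 44.9 ± 9.08 TPM followed, where the mean levels of Cyp24a1 and Slc34a3 differed by less than their spread. Slc20a2 at 27.8 ± 2.85 TPM and Fgfr1 at 19.4 ± 3.72 TPM were lower, and Cyp27b1 was last with 5.66 ± 2.89 TPM. In FAN1KO cisplatin kidneys the order of mean levels was Slc34a1, Slc9a3r1, Pth1r, Cyp24a1, Vdr, Kl, Slc20a2, Cyp27b1, Fgfr1 and Slc34a3, with Slc34a3 in the last place. In that group the means of Slc9a3r1 and Pth1r, of Vdr and Kl, of Slc20a2 and Cyp27b1, and of Cyp27b1 and Fgfr1 lay within the larger SD of the pair.

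**Figure D1:**
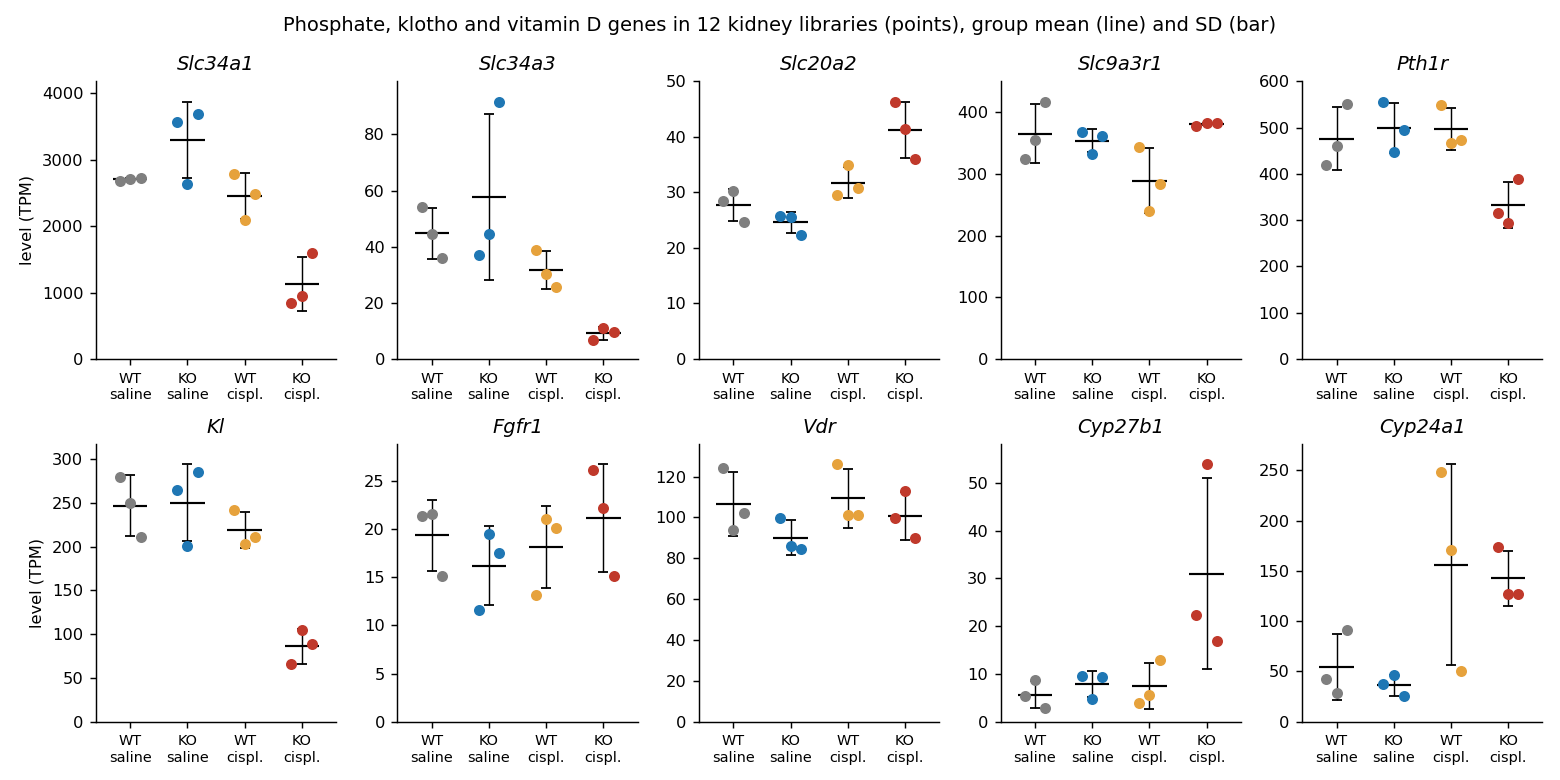
Level of each of the 10 genes in TPM (vertical axes) in each of 12 kidney libraries, grouped by genotype and treatment, with 1 point per mouse and a bar for the group mean and its SD. FAN1KO cisplatin mice have the lowest values of Slc34a1, Slc34a3, Pth1r and Kl and the highest of Slc20a2 and Cyp27b1, but after median-ratio scaling Slc20a2 is not called against either wild-type cisplatin or FAN1KO saline mice, Pth1r not against the former and Cyp27b1 not against the latter.

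The phosphate transport genes are Slc34a1, Slc34a3, Slc20a2 and Slc9a3r1. Slc34a1 (NCBI Gene 20505, chr13:55399622-55414695 in GRCm38.p6), which encodes the cotransporter NaPi-IIa, stood at 2681, 2706 and 2717 TPM in wild-type saline mice 1 to 3 and at 3563, 2635 and 3689 TPM in FAN1KO saline mice. It stood at 2776, 2087 and 2476 TPM in wild-type cisplatin mice and at 837, 954 and 1590.0 TPM in FAN1KO cisplatin mice. FAN1KO cisplatin mouse 3 was the highest of its group, yet all 3 lay below every library of the other groups, while those groups overlapped each other. The mean of FAN1KO cisplatin mice was 1127 ± 405 TPM, against 2446 ± 345 TPM in wild-type cisplatin and 3296 ± 576 TPM in FAN1KO saline mice. FAN1KO was lower than wild-type under cisplatin by -1.17 on the log2 scale (SE 0.233, adjusted p = 0.00669), or -1.41 relative to the median of all genes. Cisplatin lowered it in FAN1KO by -1.59 on the log2 scale (adjusted p = 7.79e-04), or -1.96 relative to the median, whereas in wild-type the log2 fold change was -0.15 and not called. These treatment effects differed between genotypes, with an interaction of -1.44 (SE 0.330, adjusted p = 0.0338), or -1.72 relative to the median. The interaction was no longer called after median-ratio scaling (-1.80, adjusted p = 0.0750) or with no filter on low values (adjusted p = 0.0581), in a range of 0.00337 to 0.0750 over the 8 alternatives. It was also not called when any single one of the 3 wild-type saline mice, FAN1KO saline mouse 1 or 3, wild-type cisplatin mouse 1 or 3, or FAN1KO cisplatin mouse 1 or 2 was left out, with adjusted p up to 0.0883.

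Slc34a3 (NCBI Gene 142681, chr2:25228897-25234270) encodes NaPi-IIc, a cotransporter of the same family that is also found in the brush border. It read 54.1, 44.5 and 35.9 TPM in wild-type saline mice, 36.9, 44.5 and 91.7 TPM in FAN1KO saline mice, 38.9, 30.4 and 25.5 TPM in wild-type cisplatin mice and 6.61, 11.1 and 9.64 TPM in FAN1KO cisplatin mice. FAN1KO saline mouse 3 had the highest value of all, and the 3 FAN1KO cisplatin mice lay below every other library with a wide gap. Its mean of 9.12 ± 2.29 TPM in FAN1KO cisplatin mice compares with 31.6 ± 6.78 TPM in wild-type cisplatin and 57.7 ± 29.7 TPM in FAN1KO saline mice. The log2 fold change between genotypes under cisplatin was -1.69 (SE 0.317, adjusted p = 0.00503), or -1.94 relative to the median of all genes. In FAN1KO, cisplatin lowered Slc34a3 by -2.45 on the log2 scale (adjusted p = 4.48e-04), or -2.82 relative to the median, and in wild-type the value was -0.49 and not called. The interaction was -1.96 (SE 0.448, adjusted p = 0.0338), or -2.24 relative to the median, with a range of 0.00966 to 0.0683 over the alternatives. It was not called with the replicate numbers as blocks (0.0683) or by voom on the recovered reads (0.0521), nor without any single one of the 3 wild-type saline mice, wild-type cisplatin mouse 1 or 2, or FAN1KO cisplatin mouse 1 or 2, where adjusted p reached 0.0918.

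Slc20a2 (NCBI Gene 20516, chr8:22476700-22569616) encodes the type III phosphate transporter PiT-2, which is present in many tissues. Its levels were 28.5, 30.2 and 24.6 TPM in wild-type saline, 25.8, 25.6 and 22.4 TPM in FAN1KO saline, 29.5, 34.9 and 30.8 TPM in wild-type cisplatin and 46.2, 41.4 and 36 TPM in FAN1KO cisplatin mice. The FAN1KO cisplatin mice were the highest of all 12, though their lowest value was close to the highest wild-type cisplatin value. In FAN1KO, cisplatin raised Slc20a2 by 0.72 on the log2 scale (adjusted p = 0.00169), or 0.35 relative to the median of all genes, and this call was lost after median-ratio scaling (0.26, adjusted p = 0.162, range over alternatives 1.99e-04 to 0.162). Between genotypes under cisplatin the log2 fold change of 0.36, or 0.12 relative to the median, missed the threshold (adjusted p = 0.0554). Over the alternatives adjusted p ran from 0.0134 to 0.784, the highest with median-ratio scaling. The call was made with replicate numbers as blocks (0.0449), with Y-linked RNA as a covariate (0.0134), in the 8 libraries without it (0.0275) and by voom (0.0372), and also without wild-type saline mouse 3 (0.0466) or FAN1KO cisplatin mouse 3 (0.0323).

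Slc9a3r1 (NCBI Gene 26941, chr11:115163341-115181178) encodes NHERF1, a scaffold that anchors NaPi-IIa at the brush border. It stood at 324, 355 and 417 TPM in wild-type saline, 367, 332 and 362 TPM in FAN1KO saline, 344, 239.6 and 284 TPM in wild-type cisplatin and 378, 382 and 382 TPM in FAN1KO cisplatin mice. The FAN1KO cisplatin mice were almost equal to each other and lay above the wild-type cisplatin mice, of which mice 2 and 3 held the lowest values of all. The log2 fold change of 0.41 between genotypes under cisplatin was at the threshold (adjusted p = 0.0495) and 0.17 relative to the median of all genes. The call was lost under 7 of 9 alternatives, median-ratio scaling among them (0.10, adjusted p = 0.819), with adjusted p from 0.00987 to 0.819. It was kept without wild-type saline mouse 3 or wild-type cisplatin mouse 1, and lost without any other single library (adjusted p up to 0.149). In FAN1KO the log2 fold change with cisplatin was 0.11 (adjusted p = 0.555), and -0.36 after scaling.

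The sodium-phosphate cotransporter genes summed here are the 5 genes Slc34a1, Slc34a2, Slc34a3, Slc20a1 and Slc20a2, without Slc17a3, which had a mean of 199.9 TPM in wild-type saline mice. Among these 5, Slc34a1 made up most of the RNA in all groups. On the TPM scale its share of their sum was 88.4%, 91.1% and 94.9% in FAN1KO cisplatin mice 1 to 3, and 95.4% to 97.8% in the other 9 libraries. The sum itself was 947, 1046 and 1676 TPM in FAN1KO cisplatin mice and 2187 to 3817 TPM elsewhere. Slc20a2 took 4.88%, 3.95% and 2.15% of the sum in FAN1KO cisplatin mice 1 to 3.

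The RefSeq table of gene starts held an upstream sequence for 7 of the 10 genes, and Slc20a2, Fgfr1 and Cyp24a1 had none there. The 120 bases before the outermost RefSeq start are shown for the transporter with the most RNA, for klotho and for the vitamin D-activating enzyme, 1 gene for each role, because the differences described here turn on them. All 3 are on the plus strand of GRCm38.p6, at chr13:55399502-55399621 for Slc34a1, chr5:150952487-150952606 for Kl and chr10:127048126-127048245 for Cyp27b1. Capitals mark matches to the 6-letter motifs described after the sequences.
Slc34a1: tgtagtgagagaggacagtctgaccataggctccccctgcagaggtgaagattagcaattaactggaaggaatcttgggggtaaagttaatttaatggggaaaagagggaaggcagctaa
Kl: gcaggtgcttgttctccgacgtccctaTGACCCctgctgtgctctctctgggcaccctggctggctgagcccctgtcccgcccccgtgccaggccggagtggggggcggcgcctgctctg
Cyp27b1: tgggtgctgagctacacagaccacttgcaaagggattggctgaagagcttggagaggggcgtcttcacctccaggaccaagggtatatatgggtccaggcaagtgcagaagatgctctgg
The search, on both strands, was for the hormone receptor half-sites AGGTCA with its variant AGTTCA, and GGGTCA with its variant GGTTCA, the letters that the vitamin D receptor and related nuclear receptors recognise. Kl holds 1 hormone receptor half-site, GGGTCA as its reverse complement at 93 to 88 bases before the start, and 2 of the 7 genes with an entry hold such a match, the other being Vdr. Of 23050 promoter stretches of the same length, 20.8% hold at least 1. The Slc34a1 and Cyp27b1 stretches hold no match, which says only that these letters are not in this window. A match is a description of letters and was not read as a site of binding.

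The hormone receptor genes are Pth1r, Kl and Fgfr1. Kl (NCBI Gene 16591, chr5:150952607-150993817), which encodes the FGF23 coreceptor klotho and is best known from the distal convoluted tubule, read 280.2, 249.6 and 211 TPM in wild-type saline mice and 265, 201 and 285 TPM in FAN1KO saline mice. It read 242, 203 and 211 TPM in wild-type cisplatin mice and 65.5, 105 and 88.7 TPM in FAN1KO cisplatin mice. The other 3 groups overlapped almost fully, and the 3 FAN1KO cisplatin mice lay far below them. The group mean was 86.4 ± 19.9 TPM in FAN1KO cisplatin mice, 219 ± 20.5 TPM in wild-type cisplatin mice and 250.3 ± 43.8 TPM in FAN1KO saline mice. Under cisplatin the genotypes differed by -1.35 on the log2 scale (SE 0.187, adjusted p = 0.00133), or -1.60 relative to the median of all genes. Cisplatin lowered Kl in FAN1KO by -1.53 on the log2 scale (adjusted p = 3.35e-04), or -1.90 relative to the median, against -0.17 and no call in wild-type. The interaction was -1.37 (SE 0.265, adjusted p = 0.0201), or -1.65 relative to the median, and was called under 7 of 8 alternatives and without any single library, with adjusted p from 0.00484 to 0.0544. The exception was the fit on the 8 libraries without Y-linked RNA (adjusted p = 0.0544).

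Pth1r (NCBI Gene 19228, chr9:110722085-110747145), the receptor of parathyroid hormone, stood at 419, 459.6 and 550.4 TPM in wild-type saline mice, 556, 448 and 494 TPM in FAN1KO saline mice, 548, 466 and 474 TPM in wild-type cisplatin mice and 315, 293 and 388 TPM in FAN1KO cisplatin mice. The last group was below every other library, by a small margin for mouse 3. In each group the library with Y-linked RNA was the highest. Among these libraries FAN1KO cisplatin mouse 3 read 388 TPM, against 548 to 556 TPM in the other groups. Under cisplatin FAN1KO was lower than wild-type by -0.58 on the log2 scale (SE 0.144, adjusted p = 0.0164), or -0.83 relative to the median of all genes, a call that median-ratio scaling ended (-0.89, adjusted p = 0.0513, range over alternatives 2.70e-04 to 0.0513). It was also not called without wild-type cisplatin mouse 1 (0.0612), FAN1KO cisplatin mouse 1 (0.0671) or FAN1KO cisplatin mouse 2 (0.0688). Cisplatin lowered Pth1r in FAN1KO by -0.59 on the log2 scale (adjusted p = 0.00903), or -0.96 relative to the median of all genes, and this call was kept under every alternative and without any single library. The interaction of -0.66 missed the threshold (adjusted p = 0.0776, range over alternatives 0.00260 to 0.179, with calls from the Y-linked covariate, the 8 libraries without Y-linked RNA and, at 0.0429, without FAN1KO cisplatin mouse 3), so the treatment effect was not shown to differ between genotypes.

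Fgfr1 (NCBI Gene 14182, chr8:25518759-25575718) encodes the receptor kinase through which FGF23 signals together with klotho. Its levels ran from 11.6 to 26.1 TPM over the 12 libraries and overlapped in every comparison. The library with Y-linked RNA was the lowest of each group, at 15.1 TPM in FAN1KO cisplatin mouse 3. Among the 8 libraries without it, FAN1KO cisplatin mice 1 and 2 (26.1 and 22.2 TPM) lay above all others (17.5 to 21.6 TPM). The log2 fold change was 0.21 between genotypes under cisplatin (adjusted p = 0.590) and 0.36 with cisplatin in FAN1KO (adjusted p = 0.281), and both became -0.08 after median-ratio scaling. With the Y-linked RNA as a covariate both were called (adjusted p = 0.0423 and 0.00240), and the latter also in the 8 libraries without Y-linked RNA (0.0251), within ranges of 0.0423 to 0.716 and 0.00240 to 0.705 over the alternatives.

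**Figure D2:**
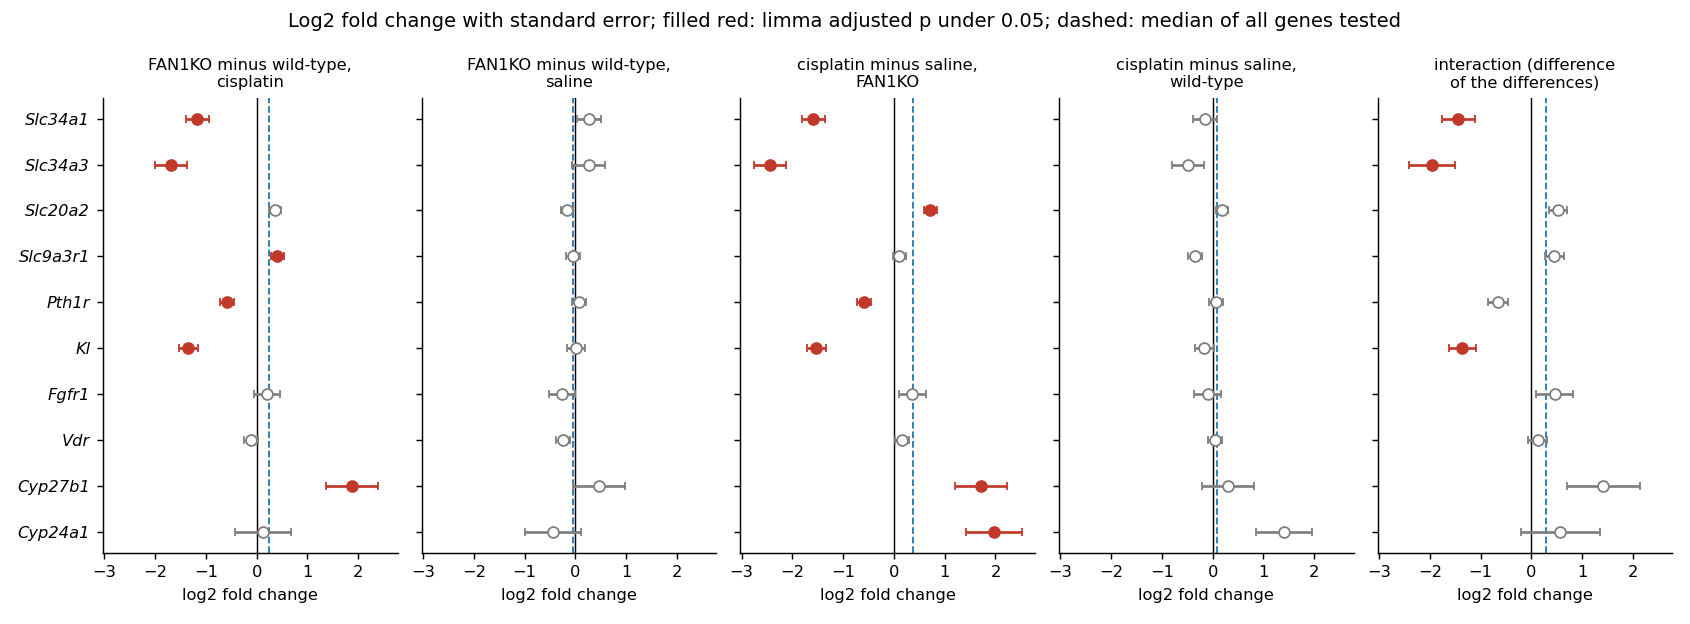
Log2 fold change on the log2(TPM + 1) scale (horizontal axis) of each of the 10 genes in the 5 comparisons, with bars for the SE, filled points for an adjusted p under 0.05 and a dashed line for the median of all genes. The negative values of Slc34a1, Slc34a3 and Kl in both comparisons with FAN1KO cisplatin mice keep their calls after median-ratio scaling, while the calls of Slc9a3r1 and Pth1r between genotypes, those of Slc20a2, Cyp27b1 and Cyp24a1 with cisplatin in FAN1KO and that of Slc34a1 for the interaction are lost.

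The vitamin D genes are Cyp27b1, Cyp24a1 and Vdr. Cyp27b1 (NCBI Gene 13115, chr10:127048246-127054884), the enzyme that makes the active hormone, read 5.31, 8.7 and 2.96 TPM in wild-type saline, 9.63, 4.79 and 9.42 TPM in FAN1KO saline, 3.88, 5.58 and 13 TPM in wild-type cisplatin and 22.3, 53.9 and 16.9 TPM in FAN1KO cisplatin mice. The 3 FAN1KO cisplatin mice were above all others, with mouse 2 far above the other two and mouse 3 not far from the highest wild-type cisplatin mouse. The mean was 31 ± 20 TPM in FAN1KO cisplatin mice, against 7.5 ± 4.87 TPM in wild-type cisplatin mice, a ratio of means of 4.13. The log2 fold change between genotypes under cisplatin was 1.89 (SE 0.510, adjusted p = 0.0241, 95% interval 0.76 to 3.02), or 1.64 relative to the median of all genes. It was kept after median-ratio scaling (1.60, adjusted p = 0.0481) and lost in a fit on only the 6 libraries compared (0.0574), in a range of 0.00589 to 0.0574. It was not called without wild-type cisplatin mouse 1 (0.0917) or 2 (0.0612), or FAN1KO cisplatin mouse 1 (0.0597) or 2 (0.0904). Cisplatin in FAN1KO raised it by 1.72 on the log2 scale (adjusted p = 0.0221), or 1.35 relative to the median, which was no longer called after median-ratio scaling (1.28, adjusted p = 0.0728, range over alternatives 0.00671 to 0.0728). Leaving out FAN1KO saline mouse 2 (0.0698) or FAN1KO cisplatin mouse 2 (0.0866) also ended that call. The interaction of 1.42 was not called (adjusted p = 0.250).

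Cyp24a1 (NCBI Gene 13081, chr2:170482957-170497145), the enzyme that inactivates vitamin D hormones, varied widely within groups. It stood at 42.5, 28.7 and 91.2 TPM in wild-type saline, 38, 46 and 25.2 TPM in FAN1KO saline, 248, 171 and 50.2 TPM in wild-type cisplatin and 174, 127 and 127 TPM in FAN1KO cisplatin mice. Values were high in all FAN1KO cisplatin mice and in wild-type cisplatin mice 1 and 2, whereas wild-type cisplatin mouse 3 lay within the range of the saline mice. Cisplatin raised Cyp24a1 in FAN1KO by 1.97 on the log2 scale (SE 0.549, adjusted p = 0.0170), or 1.60 relative to the median of all genes. The call was lost after median-ratio scaling (1.51, adjusted p = 0.0991, range over alternatives 0.00354 to 0.0991), without FAN1KO saline mouse 3 (0.0574) and without FAN1KO cisplatin mouse 1 (0.0660). In wild-type the log2 fold change of 1.40 had an unadjusted p of 0.0277 by limma and an adjusted p of 1, and the interaction of 0.57 was not called (adjusted p = 0.687). Between genotypes under cisplatin the log2 fold change was 0.13 (adjusted p = 0.882), and -0.17 after scaling.

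The ratio of Cyp24a1 to Cyp27b1 in TPM sets the enzyme that breaks the hormone down against the one that makes it. It was 8, 3.3 and 30.8 in wild-type saline, 3.95, 9.61 and 2.68 in FAN1KO saline, 63.8, 30.6 and 3.85 in wild-type cisplatin and 7.82, 2.36 and 7.53 in FAN1KO cisplatin mice. The FAN1KO cisplatin values lay within the range of the FAN1KO saline values except for mouse 2, which was slightly lower, while the wild-type values spread widely under both treatments.

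Vdr (NCBI Gene 22337, chr15:97854427-97908296), the nuclear receptor of active vitamin D, ran from 84.5 to 126 TPM over the 12 libraries. Its groups overlapped in every comparison. The log2 fold change was -0.12 between genotypes under cisplatin (adjusted p = 0.574) and 0.16 with cisplatin in FAN1KO (adjusted p = 0.385), the latter turning to -0.30 after median-ratio scaling.

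The genotypes were compared under cisplatin, a difference that also holds any difference present without the drug. FAN1KO kidneys had less RNA of NaPi-IIa, NaPi-IIc, klotho and the parathyroid hormone receptor, and more of the vitamin D-activating enzyme and, at the threshold, of the scaffold NHERF1. What the deletion adds to the drug is asked by the interaction. By limma it was not called for Cyp27b1 (adjusted p = 0.250), Pth1r (0.0776) or Slc9a3r1 (0.173). Of the 10 members, 6 were called, 2 higher and 4 lower, where 23.9% of all genes tested were called, 19.6% higher and 4.37% lower. The median log2 fold change was 0.01 over the members and 0.24 over all genes. After median-ratio scaling the calls of NHERF1 (0.10, adjusted p = 0.819) and the parathyroid hormone receptor (-0.89, adjusted p = 0.0513) were lost. With this scaling 4 members and 16.4% of all genes were called, and the share of higher genes among all those called was 53.0% in place of 81.8%. The groups did not overlap for 7 of the 10 members, where 44.3% of all genes tested did not overlap, each with an exact two-sided permutation p of 0.1, the smallest that 3 mice against 3 allow. The count of members called was 3 without FAN1KO cisplatin mouse 1 or without FAN1KO cisplatin mouse 2, while Slc34a1, Slc34a3 and Kl were called under all 9 alternatives and without any single library. With Y-linked RNA as a covariate 8 members were called, and in the 8 libraries without it 7, where these fits called 7323 and 5490 of all genes in place of 3585.

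Under saline, the genotypes were compared to show what the deletion does without the drug. No member passed the test. With Y-linked RNA as a covariate 0 members and 421 of all genes were called, and in the 8 libraries without it 0 members and 295 genes. Of the 10 members, 0 were called by limma, 0 had an unadjusted p under 0.05 and 0 were called by voom, where limma called 0.768% of all genes and 8.38% had an unadjusted p under 0.05. The log2 fold changes were 0.27 for Slc34a1, 0.26 for Slc34a3, 0.01 for Kl, 0.47 for Cyp27b1 and -0.44 for Cyp24a1, and all members overlapped, where 12.5% of all genes did not. The 95% interval for Slc34a1 ran from -0.24 to 0.79 and that for Kl from -0.40 to 0.43, so differences of either sign within these intervals are not excluded.

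The effect of cisplatin was then read within each genotype. In FAN1KO kidneys the drug lowered the RNA of both NaPi-II cotransporters, klotho and the parathyroid hormone receptor, and raised that of PiT-2 and of both vitamin D hydroxylases, with the calls of the raised ones lost after median-ratio scaling. Of the 10 members, 7 were called, 3 higher and 4 lower, where 39.8% of all genes were called, 34.9% higher and 4.9% lower. After median-ratio scaling 4 members, all lower, and 28.4% of all genes were called, and the share of higher genes among all those called was 50.7% in place of 87.7%. The groups did not overlap for 8 members, where 54.9% of all genes tested did not overlap, among them Slc9a3r1, whose change was not called. This comparison and that of the genotypes under cisplatin share the 3 FAN1KO cisplatin libraries, so their values are not independent. With Y-linked RNA as a covariate 8 members and 9141 of all genes were called, and in the 8 libraries without it 8 members and 7903 genes, in place of 5962.

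In wild-type kidneys no member passed the test. With Y-linked RNA as a covariate 0 members and 58 of all genes were called, and in the 8 libraries without it 0 members and 63 genes. Of the 10 members, 0 were called by limma and 0 by voom, where 0.0601% of all genes were called, and 2 had an unadjusted p under 0.05, as did 449 of 14972 genes. These were Cyp24a1, with a log2 fold change of 1.40, and Slc9a3r1, with -0.34 (unadjusted p = 0.0279 by limma). The 95% interval of the log2 fold change was -0.67 to 0.36 for Slc34a1 and -0.58 to 0.25 for Kl, and neither reaches the values seen in FAN1KO. All members overlapped between wild-type saline and wild-type cisplatin mice, where 6.28% of all genes did not.

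The interaction asks whether the effect of cisplatin differed between genotypes. It did for Slc34a1, Slc34a3 and Kl, all more negative in FAN1KO, which makes 3 of 10 members called where 6.24% of all genes were called and 1.02% were called lower. The count was 1 without any single wild-type saline mouse, without wild-type cisplatin mouse 1 and without FAN1KO cisplatin mouse 1 or 2, and it was 4 without FAN1KO cisplatin mouse 3, where Pth1r was called as well (adjusted p = 0.0429). With Y-linked RNA as a covariate the interaction was called for 7 members and 4734 of all genes in place of 935, with Slc20a2 (adjusted p = 0.0197), Slc9a3r1 (0.0446), Pth1r (0.00260) and Fgfr1 (0.0136) added. In the 8 libraries without Y-linked RNA it was called for 4 members, Kl not among them (0.0544) and Slc20a2 (0.0302) and Pth1r (0.0186) added, and for 2438 genes. Median-ratio scaling left Slc34a3 (-2.28, adjusted p = 0.0318) and Kl (-1.72, adjusted p = 0.0374) called.

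**Figure D3:**
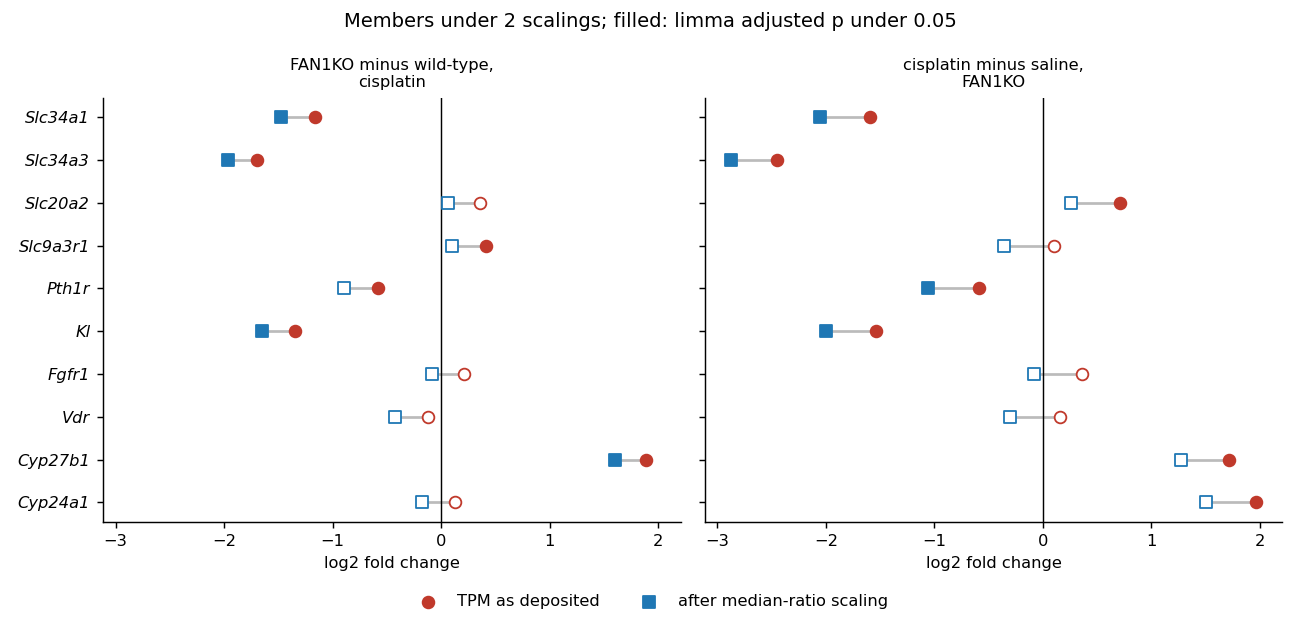
Log2 fold change of each of the 10 genes as deposited and after median-ratio scaling (axes in log2 units), for FAN1KO against wild-type under cisplatin and for cisplatin against saline in FAN1KO. Scaling lowers every value by about the median shift of all genes, which turns the sign of Fgfr1 in both comparisons, of Cyp24a1 in the former and of Slc9a3r1 and Vdr in the latter, none of which was called there.

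Other genes of the same pathways were read from 5 lists of 49 genes. Fgf23, Klb, Phex, Pth2r and Pthlh did not pass the filter. The counts in each list stand against shares over all genes of 23.9% called between genotypes under cisplatin (19.6% higher and 4.37% lower) and 39.8% with cisplatin in FAN1KO (34.9% higher and 4.9% lower). Among 11 other phosphate transport and scaffold genes, 2 were higher and 2 lower in FAN1KO under cisplatin, and 3 were higher and 3 lower with cisplatin in FAN1KO. Pdzk1, a scaffold that binds NaPi-IIa, had means of 982 ± 47 TPM in wild-type cisplatin, 592 ± 59.1 TPM in FAN1KO cisplatin and 1185 ± 33.5 TPM in FAN1KO saline mice. It was lower between genotypes under cisplatin by -0.73 on the log2 scale (adjusted p = 0.00152), and cisplatin lowered it in FAN1KO with an adjusted p of 1.81e-04. Slc34a2, a cotransporter of the same family better known from lung and intestine, read 3.29, 3.29 and 2.39 TPM in wild-type saline, 0.517, 1.58 and 0.469 TPM in FAN1KO saline, 1.6, 6.76 and 5.36 TPM in wild-type cisplatin and 23.4, 14.4 and 11.8 TPM in FAN1KO cisplatin mice. It thus lay highest where the other NaPi-II genes lay lowest, and its lowest values were in FAN1KO saline mice. Its log2 fold change was 1.74 between genotypes under cisplatin (adjusted p = 0.0124) and 3.24 with cisplatin in FAN1KO (adjusted p = 3.55e-04). Slc17a3 and the brush border linker Ezr were called between genotypes at -1.67 (adjusted p = 0.0401) and 0.76 (adjusted p = 0.0387), both lost after median-ratio scaling, where Slc17a3 stood at -1.97 (adjusted p = 0.0675) and Ezr at 0.45 (adjusted p = 0.0575). With cisplatin in FAN1KO, the type III transporter Slc20a1 was called at 0.82 (adjusted p = 0.00558) and Ezr at 0.85 (adjusted p = 0.0153), both lost after scaling at 0.37 and 0.38.

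Among the other FGF23 and klotho genes 8 of 11 were tested, with 1 lower between genotypes under cisplatin and 2 lower with cisplatin in FAN1KO, against 23.9% and 39.8% of all genes called, and 4.37% and 4.9% of all genes called lower. Fgfr4, an FGF receptor, was lower in both, at -0.65 (adjusted p = 0.00184) and -0.33 (adjusted p = 0.0221, not called in a fit on the 6 libraries compared, 0.0549, in a range of 0.00766 to 0.0549), and the kinase gene Fam20c was lower in the latter at -0.40 (adjusted p = 0.0411). Under saline Fgfr4 was not called between genotypes (-0.41, adjusted p = 0.117). Its levels of 29.5 to 32.8 TPM in FAN1KO and 40.4 to 46.5 TPM in wild-type saline mice did not overlap, as was so for 12.5% of all genes tested. Of the other parathyroid hormone signalling genes 7 of 9 were tested and only the G protein gene Gna11 was called, at 0.38 (adjusted p = 0.0213) between genotypes and 0.37 (adjusted p = 0.0146) with cisplatin in FAN1KO, where scaling gave 0.08 and -0.09 and no call. Among 11 other vitamin D genes 3 were lower between genotypes under cisplatin, where 23.9% of all genes were called and 4.37% were lower, namely Lrp2 at -1.44 (adjusted p = 0.00271), Cubn at -0.89 (adjusted p = 0.0308) and Fdx1 at -0.44 (adjusted p = 0.0400, after scaling -0.74 and adjusted p = 0.0810). Lrp2 and Cubn encode megalin and cubilin, which take up filtered vitamin D with its binding protein, and Fdx1 passes electrons to the vitamin D hydroxylases. The same genes were lower with cisplatin in FAN1KO, at -1.49 (adjusted p = 0.00110), -0.98 (adjusted p = 0.0121) and -0.41 (adjusted p = 0.0349), and Rxrb, a partner of Vdr, was higher at 0.47 (adjusted p = 0.00814) as deposited and 0.01 and not called after scaling. Of 7 distal calcium transport genes, the channel gene Trpv6 was higher between genotypes at 1.13 (adjusted p = 0.0154) and the calcium buffer Calb1 lower at -1.40 (adjusted p = 0.0249). With cisplatin in FAN1KO these were 1.59 (adjusted p = 0.00173) and -1.10 (adjusted p = 0.0403).

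Several of these calls depended on the fit or on single libraries. Between genotypes under cisplatin, replicate blocks ended the calls of Ezr, Cubn and Fdx1 (adjusted p 0.0502 to 0.0631), the fit on 6 libraries those of Slc17a3, Gna11 and Fdx1 (0.0542 to 0.0713), no filter those of Ezr and Slc17a3 (0.0535 to 0.0575), and for Fdx1 also voom (0.0569) and no trend (0.0551). With cisplatin in FAN1KO, the call of Fam20c was lost with the 6 libraries, blocks or no trend (highest 0.0670) and that of Calb1 with no filter (0.0589). Between genotypes under cisplatin, leaving out FAN1KO cisplatin mouse 1 ended the calls of Slc34a2, Ezr, Slc17a3, Gna11, Cubn, Fdx1, Trpv6 and Calb1 (adjusted p 0.0599 to 0.153), and leaving out wild-type cisplatin mouse 1 those of Ezr, Slc17a3, Gna11, Cubn, Fdx1 and Trpv6 (0.0526 to 0.146). Without FAN1KO cisplatin mouse 2, Ezr, Slc17a3, Gna11, Cubn and Fdx1 were not called (0.0795 to 0.120). Without FAN1KO cisplatin mouse 3 Fdx1 and Calb1 were not called (0.0676 to 0.0703), without wild-type cisplatin mouse 2 Ezr, Slc17a3, Cubn and Calb1 (0.0532 to 0.0785), and without wild-type cisplatin mouse 3 Cubn, Fdx1 and Calb1 (0.0690 to 0.0693). Among saline mice, wild-type mouse 1 ended the calls of Ezr and Slc17a3 (0.0519 to 0.0545), wild-type mouse 2 those of Slc17a3 and Fdx1 (0.0501 to 0.0533), FAN1KO mouse 2 that of Ezr (0.0520) and FAN1KO mouse 3 that of Fdx1 (0.0553). Pdzk1, Fgfr4 and Lrp2 kept the call without any single library. With cisplatin in FAN1KO, leaving out FAN1KO cisplatin mouse 1 ended 7 calls (Ezr, Fgfr4, Fam20c, Gna11, Cubn, Fdx1 and Calb1, 0.0532 to 0.116), mouse 2 those of Fam20c, Gna11 and Fdx1 (0.0563 to 0.0998), and mouse 3 those of Fgfr4, Fam20c, Fdx1 and Calb1 (0.0642 to 0.117). Of the FAN1KO saline mice, leaving out mouse 1 ended the calls of Ezr, Fgfr4, Gna11, Fdx1 and Calb1 (0.0573 to 0.119), mouse 2 those of Fam20c and Calb1 (0.0940 to 0.116) and mouse 3 those of Fgfr4, Fam20c, Fdx1 and Calb1 (0.0680 to 0.132). The call of Calb1 was also lost without wild-type cisplatin mouse 2 (0.0519), and that of Fam20c without wild-type cisplatin mouse 3 (0.0553) or wild-type saline mouse 2 (0.0567).

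**Figure D4:**
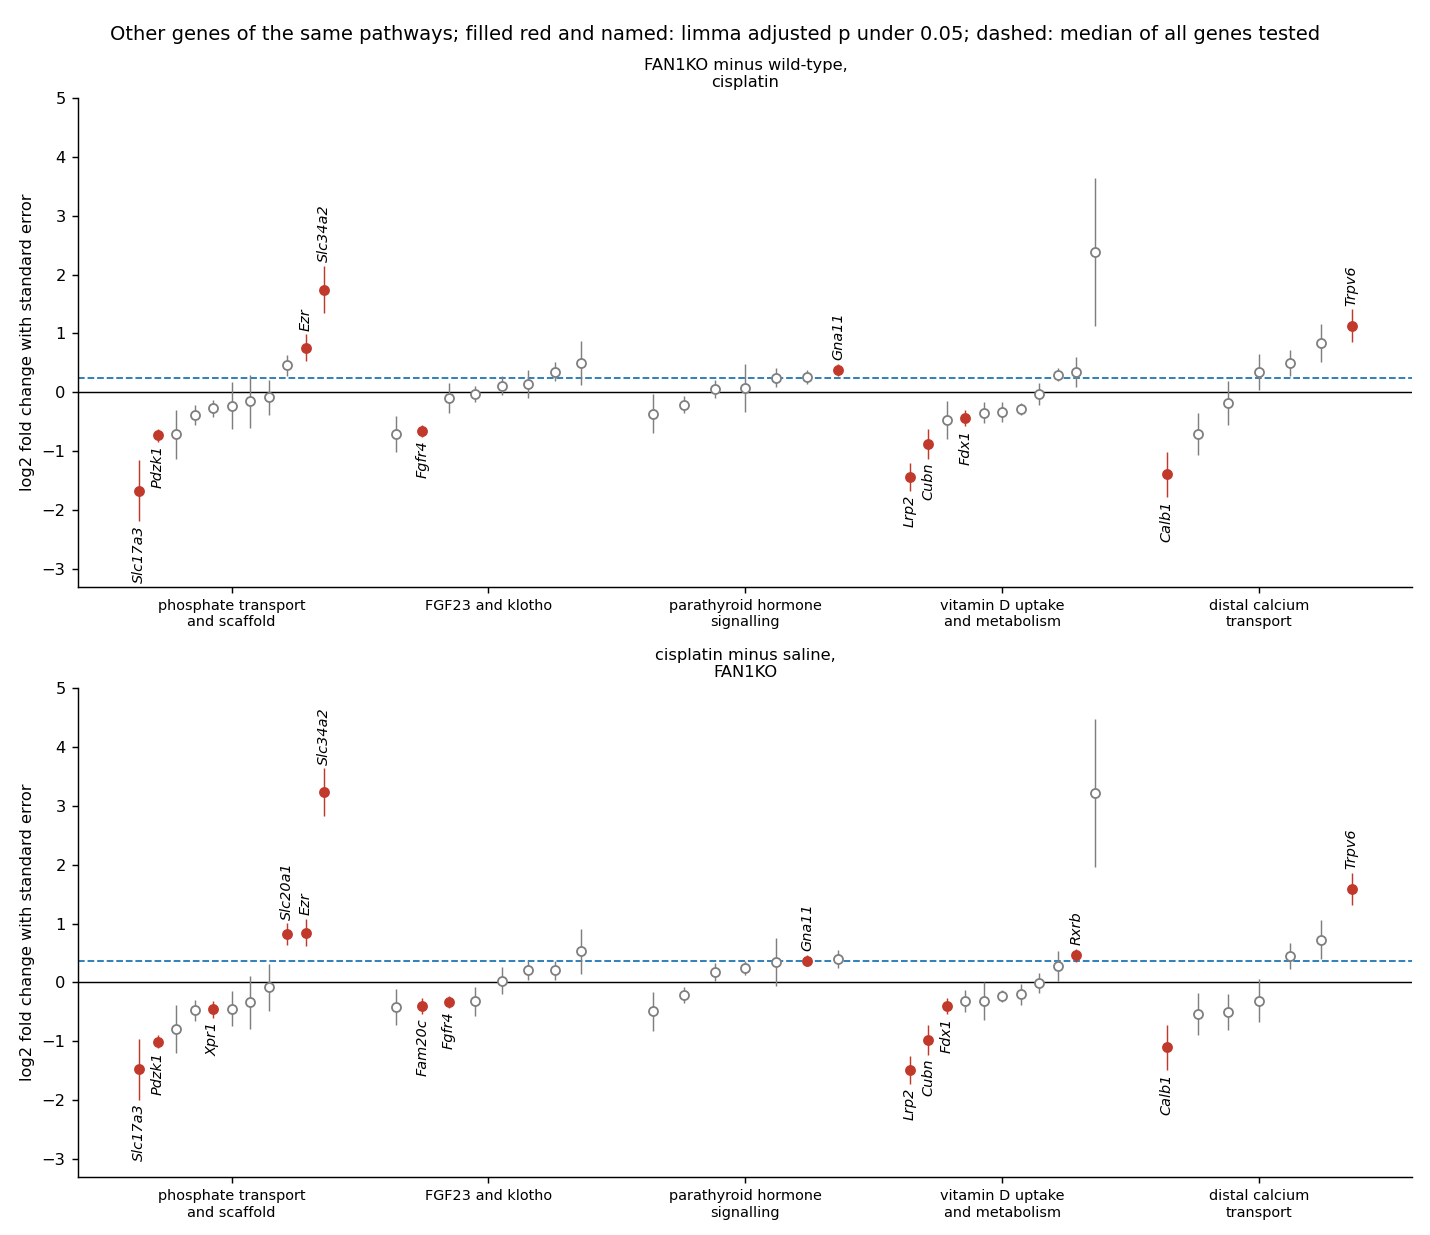
Log2 fold change (vertical axis) of each tested gene of the 5 lists of other pathway genes, for FAN1KO against wild-type under cisplatin and for cisplatin against saline in FAN1KO, with called genes filled and named. Pdzk1, Fgfr4, Lrp2 and Cubn are lower and Slc34a2 and Trpv6 higher in both, while the calls of Ezr and Gna11 in both comparisons, of Slc17a3 and Fdx1 in the former and of Slc20a1 and Rxrb in the latter are lost after median-ratio scaling, Slc17a3 at -1.97 and Fdx1 at -0.74 being farther from 0 than as deposited.

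Markers of some kidney cell types moved with the same libraries. Of all genes, 19.6% were called higher between genotypes under cisplatin and 4.37% lower, and with cisplatin in FAN1KO 34.9% higher and 4.9% lower, and the counts below stand against these shares. The 10 proximal tubule markers, all above 0 in every library with Slc27a2 the most abundant, summed to 4952, 5014 and 5981 TPM in wild-type saline, 6254, 4796 and 4391 TPM in FAN1KO saline, 6024, 4244 and 4692 TPM in wild-type cisplatin and 2048, 2249.6 and 3635 TPM in FAN1KO cisplatin mice. As with Slc34a1, the 3 FAN1KO cisplatin mice were lowest and mouse 3 was the highest of them. Of the 10, 7 were lower between genotypes under cisplatin (4.37% of all genes), 7 were lower with cisplatin in FAN1KO (4.9% of all genes), and Lrp2 and Cubn stand in both this list and that of the vitamin D genes. The former count was 2 without wild-type cisplatin mouse 1, FAN1KO cisplatin mouse 1 or FAN1KO cisplatin mouse 2, 3 without wild-type cisplatin mouse 2 or 3, and 4 without wild-type saline mouse 1 or 2, and the latter was 4 without FAN1KO cisplatin mouse 1. The 4 injured tubule markers, all above 0 and led by Havcr1, Lcn2 or Vcam1, summed to 67.3, 59.8 and 25 TPM in wild-type saline, 9.32, 35.4 and 6.86 TPM in FAN1KO saline, 32.8, 148 and 129 TPM in wild-type cisplatin and 1155, 778 and 1101 TPM in FAN1KO cisplatin mice. All 4 were higher between genotypes under cisplatin (19.6% of all genes), 2 of them without wild-type cisplatin mouse 1 or without FAN1KO cisplatin mouse 1 or 3, and all 4 with cisplatin in FAN1KO (34.9% of all genes). The part of these cell types in the lower Slc34a1 and Slc34a3 or the higher Cyp27b1 was not tested.

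The 3 distal convoluted tubule markers, all above 0, summed to 405 to 889 TPM in wild-type saline, 398 to 854 TPM in FAN1KO saline, 390.4 to 728 TPM in wild-type cisplatin and 475, 629 and 254 TPM in FAN1KO cisplatin mice, with Slc12a3 or Pvalb the most abundant. The sums overlapped between groups, but their genes went different ways. Pvalb was lower between genotypes under cisplatin by -4.63 on the log2 scale (adjusted p = 0.00120) and with cisplatin in FAN1KO by -3.90 (adjusted p = 0.00123), and 1 gene of this list was called after median-ratio scaling and with each library left out. The log2 fold changes between genotypes of the others, not called, were 0.55 for Slc12a3 and -0.50 for Trpm6. Macrophage markers, 5 genes led by Csf1r or C1qa, summed to 304, 142 and 110.2 TPM in FAN1KO cisplatin mice and 31.8 to 113 TPM elsewhere. Of the 5 only Cd68 was called between genotypes under cisplatin (1.56, adjusted p = 0.0499), while the others were not called, with log2 fold changes of 1.85 for C1qa (adjusted p = 0.0544), 1.39 for C1qb, 0.43 for Adgre1 and -0.34 for Csf1r. No gene of this list was left after median-ratio scaling, or without wild-type saline mouse 1 or 2, FAN1KO saline mouse 2 or 3, wild-type cisplatin mouse 1 or 3, or FAN1KO cisplatin mouse 1 or 2. With cisplatin in FAN1KO 3 of the 5 were higher, namely Cd68 at 2.47 (adjusted p = 0.00436), C1qa at 2.24 (adjusted p = 0.0171) and C1qb at 2.08 (adjusted p = 0.0233), against 34.9% of all genes. These were 3 after median-ratio scaling as well, and 1 without FAN1KO saline mouse 1 or FAN1KO cisplatin mouse 1. The part of either list in the level of Kl was not tested.

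The sums of 6 other lists overlapped between FAN1KO cisplatin and wild-type cisplatin mice, although genes within a list could differ. Between FAN1KO cisplatin and FAN1KO saline mice they overlapped too, except for connecting tubule and principal cells, at 1065 to 1636 against 552 to 981 TPM. Between genotypes under cisplatin, the connecting tubule and principal cell list held Aqp2 at 1.39 (adjusted p = 0.0455) and Aqp3 at 0.51 (adjusted p = 0.0325) beside Calb1 at -1.40, and of these 3 calls 1 was left after median-ratio scaling. Without any single cisplatin mouse the count was 1 as well, or 0 without FAN1KO cisplatin mouse 3. With cisplatin in FAN1KO the same genes were called, Aqp2 at 1.79 (adjusted p = 0.0102), Aqp3 at 0.46 (adjusted p = 0.0313) and Calb1 lower, of which 2 were left after median-ratio scaling and 1 without FAN1KO saline mouse 1 or FAN1KO cisplatin mouse 3. In the same comparison Cldn16 of the thick ascending limb was called at 1.10 (adjusted p = 0.0335) and Kdr of endothelium at -1.99 (adjusted p = 0.0466). Each of these lists kept 1 call after median-ratio scaling and held 0 without FAN1KO saline mouse 3 or any single FAN1KO cisplatin mouse. The count was 0 as well for thick ascending limb without FAN1KO saline mouse 1, and for endothelium without wild-type saline mouse 1 or 2, FAN1KO saline mouse 2 or wild-type cisplatin mouse 3. Of the lymphocyte genes only Cd8a was called between genotypes under cisplatin (0.87, adjusted p = 0.0428), and none was left after median-ratio scaling, without any single wild-type saline mouse, or without FAN1KO saline mouse 3, wild-type cisplatin mouse 1 or 2, or FAN1KO cisplatin mouse 1 or 2. The sums in FAN1KO cisplatin and wild-type cisplatin mice were 1548 to 1917 against 1096 to 2567 TPM for thick ascending limb (led by Umod), 1065 to 1636 against 631 to 1111 TPM for connecting tubule and principal cells (Aqp2 or Calb1) and 212 to 297 against 134 to 242 TPM for intercalated cells (Atp6v1g3). Endothelium came to 18.2 to 64.1 against 35 to 149 TPM (Emcn), fibroblasts to 48.4 to 118 against 35.8 to 167 TPM (Dcn or Pdgfrb) and lymphocytes to 4.14 to 13.4 against 1.96 to 6.82 TPM. Podocyte markers (led by Podxl) overlapped as well, at 29.8 to 178 TPM in FAN1KO cisplatin, 55.2 to 151 TPM in wild-type cisplatin and 81.4 to 183 TPM in FAN1KO saline mice. Of these 4 genes 0 were called between genotypes under cisplatin. With cisplatin in FAN1KO 1 was lower, where 4.9% of all genes were called lower. All these markers were above 0 in every library except the lymphocyte gene Ms4a1, at 0 in wild-type saline mouse 2 and FAN1KO saline mouse 1.

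**Figure D5:**
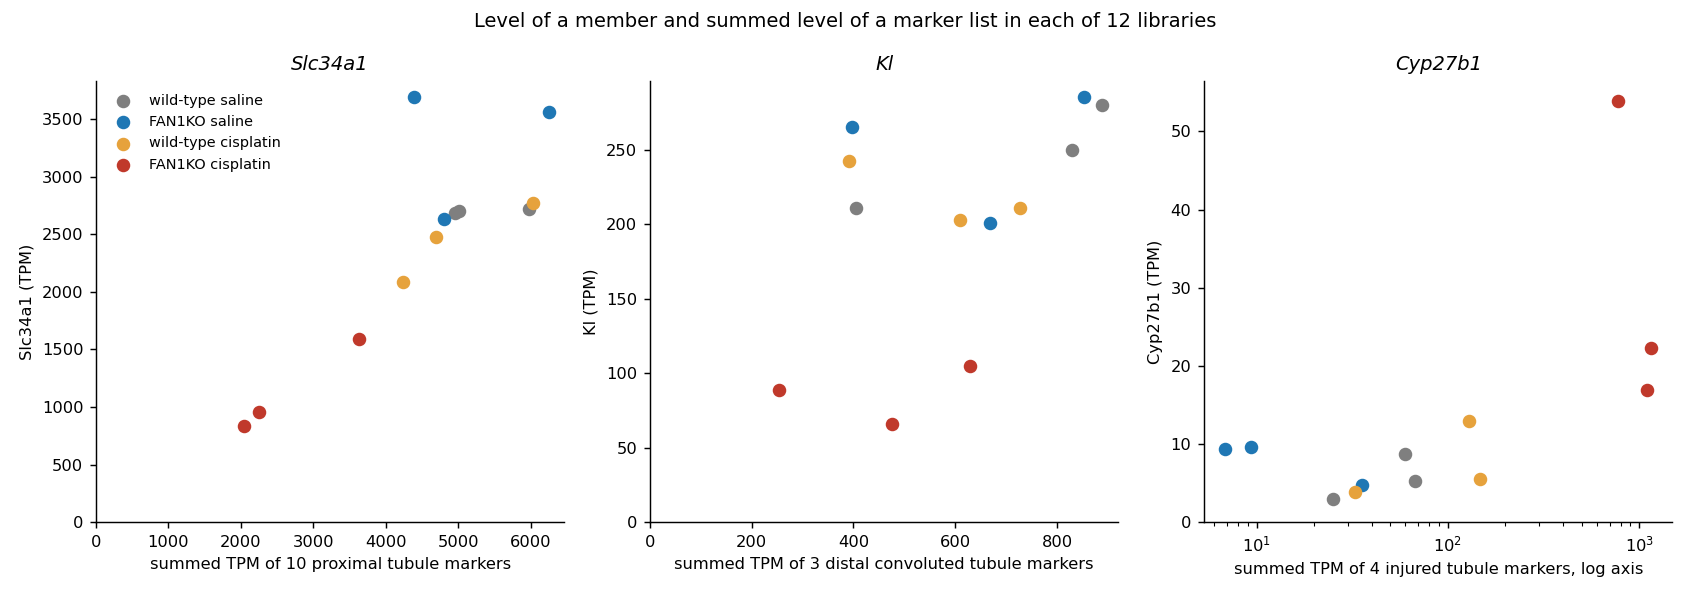
Slc34a1 against the summed level of 10 proximal tubule markers, Kl against that of 3 distal convoluted tubule markers and Cyp27b1 against that of 4 injured tubule markers (log axis), all in TPM with 1 point per mouse. FAN1KO cisplatin mice are low on both axes for Slc34a1 and high on both axes for Cyp27b1. Their Kl is low at distal marker sums of 254 to 629 TPM, which overlap the sums of 390.4 to 889 TPM in the other groups. Cyp27b1 loses its call against FAN1KO saline mice after median-ratio scaling.

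Position is not shared by the members, which lie on 8 chromosomes. Of the 10 genes, 6 overlap another annotated gene, and since strand use in counting is not stated, reads of such neighbours cannot be separated with certainty. The neighbour with the most RNA was Pfn3 at Slc34a1, which reached 189 TPM, against 2635 to 3689 TPM of Slc34a1 in the FAN1KO saline group that held this value. Smim19 at Slc20a2 reached 47.7 TPM, more than Slc20a2 itself had, and Pfdn4 at Cyp24a1 reached 26.5 TPM.

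For 8 of the 10 members the gene with the most similar pattern is given, found by Pearson correlation of log2(TPM + 1) over the 12 libraries, which share their groups. Kl ran most like Sod2 (r = 0.989, Spearman's rho = 0.930, r = 0.903 for deviations from group means, n = 12) and Slc34a3 most like Tmem64 (0.982, 0.972 and 0.866). The nearest genes of the others were Gm5424 for Pth1r (0.980), Gm6682 for Slc20a2 (0.973), Septin6 for Fgfr1 (0.965), Ccdc25 for Cyp27b1 (0.955), Alg8 for Cyp24a1 (0.919) and Mob3b for Vdr (0.881). These are descriptions of the highest of many correlations and carry no test.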

How the data were processed

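Kidney RNA of 12 mice, in 4 groups of 3, was read from the table that the authors deposited as TPM for reads aligned to mm10. The aligner and the annotation are not given in the sources used here. Gene numbers were matched to symbols with a RefSeq table, which named 25275 of 27179 identifiers. All group means were fitted together with limma 3.58.1 (R 4.3.3) on log2(TPM + 1), with a mean-variance trend, for 14972 genes with at least 1 TPM in at least 3 libraries. The p-values were adjusted by Benjamini and Hochberg over these genes, with a threshold of 0.05. Levels were also compared by exact two-sided permutation tests (scipy 1.17.1). All members are named, and of each other pathway list at most 4 called genes with the smallest p per comparison. The members, the pathway lists and the 11 marker lists (proximal tubule, thick ascending limb, distal convoluted tubule, connecting tubule and principal cells, intercalated cells, podocytes, endothelium, fibroblasts, macrophages, lymphocytes and injured tubule) were chosen with earlier results of these data known. Alternatives were a pseudocount of 0.1, no filter, median-ratio scaling, only the 6 libraries compared, replicate blocks, no trend, Y-linked RNA as covariate or left out (8 libraries), voom on recovered reads, and each library left out. The steps were tested on simulated data.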

Additional observations from a re-analysis of the deposited data

Results flagged for a closer look

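The effect of cisplatin differed between FAN1KO and wild-type mice for 3 of the 10 genes, by limma's test of the interaction of genotype and treatment, where 6.24% of all genes passed it. The interaction log2 fold change was -1.44 for Slc34a1, -1.96 for Slc34a3 and -1.37 for Kl, each more negative in FAN1KO. The call of Slc34a1 was lost after median-ratio scaling (adjusted p = 0.0750, range over alternatives 0.00337 to 0.0750), with no filter on low values (0.0581) and in 9 of 12 fits with 1 library left out. That of Slc34a3 was lost with replicate blocks (0.0683, range 0.00966 to 0.0683), by voom (0.0521) and in 7 of 12 such fits, and that of Kl in the 8 libraries without Y-linked RNA (0.0544, range 0.00484 to 0.0544). The count was 1 without any single wild-type saline mouse, wild-type cisplatin mouse 1 or FAN1KO cisplatin mouse 1 or 2.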

How the results depend on the processing

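The voom fit on recovered reads and the fit on the 8 libraries without Y-linked RNA were chosen after seeing the data. Over all alternatives and left-out libraries, the fold changes kept direction and side of the threshold in 1355 cases, lost the call in 138, gained it in 16 and changed sign in 35, and the cause was not tested. Counts of called genes in lists stayed within 1.5 times the reported count in 498 cases and moved further in 174. No fit on 6 libraries exists for the interaction, which needs all 4 groups. Replicate numbers were not taken to pair the mice. Expression deviations correlated by a mean of 0.018 over 18 pairs of the same number and 0.015 over 36 of different numbers. Single pairs of the same number ran from -0.61 to 0.76, so these means cannot exclude a pairing, and the block is a check only. Spread between mice of a group was above counting noise in all 12 pairs within groups. It was larger in the 8 pairs that hold a library with Y-linked RNA, with a chi-square per degree of freedom of 84.4 to 378. In the 4 pairs without one it was 36.6 to 58.5.

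Of all genes, FAN1KO against wild-type under cisplatin gave 2175 calls with only the 6 libraries compared, 7323 with the Y-linked covariate and 5490 in the 8 libraries without Y-linked RNA. Under saline the genotypes gave 72 calls with no filter, 27 with 6 libraries, 61 with replicate blocks, 421 with the covariate and 295 in 8 libraries. Cisplatin against saline in FAN1KO gave 9141 with the covariate, and 4 members were called after median-ratio scaling. In wild-type it gave 15 after scaling, 0 with 6 libraries, 0 with blocks, 58 with the covariate and 63 in 8 libraries, where limma had 449 genes with an unadjusted p under 0.05 and voom called 10. The interaction gave 488 after scaling, 424 with blocks, 4734 with the covariate, under which 7 members were called, and 2438 in 8 libraries.

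Leaving out 1 library gave 1539 (FAN1KO cisplatin mouse 1) to 3830 genes and 3 to 7 members between genotypes under cisplatin, 43 to 129 genes under saline, 3622 (FAN1KO cisplatin mouse 1) to 6393 genes with cisplatin in FAN1KO, 0 to 41 genes in wild-type, and 269 (FAN1KO cisplatin mouse 1) to 1197 genes and 1 to 4 members for the interaction.

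After median-ratio scaling the log2 fold change changed sign for Fgfr1 (-0.083) and Cyp24a1 (-0.17) between genotypes under cisplatin and for Slc9a3r1 under saline (0.015). With cisplatin it did so in FAN1KO for Slc9a3r1 (-0.36), Fgfr1 (-0.078), Vdr (-0.30) and Gna11 (-0.087), in wild-type for Pth1r (-0.040) and Vdr (-0.066), and for Vdr in the interaction (-0.24). In the 8 libraries it did so for Vdr under cisplatin (0.071), for Slc9a3r1 (0.031), Kl (-0.14) and Cyp27b1 (-0.011) under saline, and for Vdr with cisplatin in wild-type (-0.095). By voom it did so for Kl under saline (-0.0032). Of these, only Gna11 had been called.

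With 1 library left out, values that changed sign ran for Cyp24a1 from -0.54 to 0.60 between genotypes under cisplatin, from -0.80 to 0.018 under saline and from -0.10 to 1.04 for the interaction. Between genotypes under saline they ran for Kl from -0.095 to 0.16, for Pth1r from -0.016 to 0.18, for Slc34a3 from -0.12 to 0.52 and for Slc9a3r1 from -0.12 to 0.058. With cisplatin in wild-type they ran for Cyp27b1 from -0.14 to 0.62, for Fgfr1 from -0.26 to 0.10, for Pth1r from -0.024 to 0.17 and for Vdr from -0.070 to 0.15.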
